A study of Mus musculus with 12 samples.

Results

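Motile cilia are the beating hairs of the airway surface, and the genes described here encode the parts of their core, the axoneme, together with factors that assemble or switch on those parts. The members were all genes of the array whose single platform symbol starts with Dnah, Dnai, Cfap, Rsph, Tekt, Drc or Dnaaf, and the genes Foxj1, Rfx2, Rfx3, Mcidas, Hydin and Spag6l, which gave 74 of the 19938 genes with 1 symbol. They were measured by 124 transcript clusters, and the cluster with the highest mean stood for a gene that had several. Lung RNA of wild-type male and female C57BL/6J mice, 8 to 10 weeks old, was hybridised to Affymetrix Mouse Gene ST arrays. The 4 groups were male room air, male hyperoxia, female room air and female hyperoxia, with an oxygen fraction over 95% for 48 h in the hyperoxia groups, and each group had 3 arrays. Each array carried pooled lung RNA of 4 mice, so a p-value here measures the spread between pools of whole lung and not between single animals. All values are log2 of the authors' Robust Multichip Average signal, so a difference of 1 is a 2-fold change, and the level of a gene also depends on its probes. Array medians ran from 8.12 to 8.20, and the mean of 20 squamous epithelium genes ran from 7.18 to 10.53 across the 12 arrays, with female hyperoxia replicate 1, female room air replicate 1 and female room air replicate 3 the richest. A gene fell or rose where limma's Benjamini-Hochberg adjusted p over all 35556 clusters was under 0.05 and the change was at least 1.4-fold, that is 0.485 on the log2 scale, and the word called is used for these genes.

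An axoneme holds a ring of doublet microtubules around a central pair. Outer and inner dynein arms are the motors that slide neighbouring doublets, radial spokes and the central pair control them, and the nexin-dynein regulatory complex links the doublets so that sliding becomes bending. Dynein arms are put together in the cytoplasm by dedicated assembly factors before they enter the cilium. In the lung these structures belong to the multiciliated cells of the airways, in which Gmnc and Mcidas start the ciliated fate, Foxj1 is the main transcription factor of motile cilia, and the Rfx factors bind a paired site called the X-box in front of many cilia genes.

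X-box matches were found around the transcript starts of 14 of these genes and are printed here, since the choice of members did not use the promoter letters. RefSeq promoter windows of GRCm38.p6, from 250 bases before to 50 bases after a transcript start, were found for 63 of the 74 members. The searched X-box was GTNNCC and GGNNAC with 0 to 3 bases between them, read on both strands, and the 15 matches in 14 members are printed 5′ to 3′ on the gene's strand with the fixed bases in capitals.
Dnaaf6: GTtaCCcaGGcaAC
Cfap126: GTatCCatGGctAC
Cfap77: GTcaCCaaGGagAC
Cfap206: GTttCCacGGttAC
Dnaaf5: GTtcCCttGGagAC
Cfap20dc: GTtgCCtgGGcaAC
Spag6l: GTtgCCctGGagAC
Cfap298, first match: GTtgCCcgGGcaAC
Cfap298, second match: GTtgCCcctGGcaAC
Tekt4: GTgtCCtgGGaaAC
Rsph9: GTctCCatGGagAC
Rfx2: GTagCCgtGGagAC
Cfap43: GTctCCaGGatAC
Cfap58: GTtgCCaGGcgAC
Dnaaf6b: GTtaCCcgGGcaAC
The matches of Spag6l and Rfx2 begin at 34 relative to the transcript start, thus after it, and the others begin before it. That of Cfap126 was not in the first of its windows. Counting the first window of each gene, 13 of 63 members (20.6%) held a match, against 3.81% of all 27025 genes of the table. The single RFX half-site GTTGCC, on either strand, was in the windows of 29 members (46%), against 12.7% of all genes, and 7 of the 15 X-box matches overlapped one. The forkhead motif GTAAACA was in 4 of 63 (6.35%), against 3.55%. A match is a string of letters and does not show that a factor binds there.

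A few whole windows are shown because they belong to genes whose values are described further on, with half-sites and X-boxes in capitals. Hydin, which fell in hyperoxia, has 1 half-site in its window at chr8:110266727-110267026 on the plus strand of GRCm38.p6.
Hydin: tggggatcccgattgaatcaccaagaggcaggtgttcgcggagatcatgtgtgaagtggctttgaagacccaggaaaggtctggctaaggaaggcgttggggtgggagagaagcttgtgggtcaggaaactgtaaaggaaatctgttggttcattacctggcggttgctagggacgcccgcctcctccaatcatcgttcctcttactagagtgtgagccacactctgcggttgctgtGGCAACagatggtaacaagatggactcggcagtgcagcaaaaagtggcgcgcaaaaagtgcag
Rfx3, itself an X-box binding factor, has 1 half-site at chr19:28011117-28011416 on the minus strand.
Rfx3: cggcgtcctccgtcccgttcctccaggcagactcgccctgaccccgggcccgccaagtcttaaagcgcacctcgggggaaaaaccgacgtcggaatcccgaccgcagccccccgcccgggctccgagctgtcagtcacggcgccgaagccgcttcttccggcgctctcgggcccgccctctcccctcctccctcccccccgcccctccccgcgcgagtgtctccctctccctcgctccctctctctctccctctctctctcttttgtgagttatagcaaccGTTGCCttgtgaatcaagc
Cfap298, a dynein arm assembly factor whose mean level was higher in hyperoxia, has 2 X-boxes, which begin at -188 and -69 relative to the start, in the window at chr16:90934800-90935099 on the minus strand.
Cfap298: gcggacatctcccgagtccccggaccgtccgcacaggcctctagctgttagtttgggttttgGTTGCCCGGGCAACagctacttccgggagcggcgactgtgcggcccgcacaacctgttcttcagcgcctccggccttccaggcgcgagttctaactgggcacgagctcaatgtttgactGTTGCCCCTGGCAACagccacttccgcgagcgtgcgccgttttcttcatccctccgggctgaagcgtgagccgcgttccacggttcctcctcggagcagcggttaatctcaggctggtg
Dnaaf5, another assembly factor with a higher mean in hyperoxia, has an X-box that begins at -18 and a half-site close behind it, at chr5:139149985-139150284 on the plus strand.
Dnaaf5: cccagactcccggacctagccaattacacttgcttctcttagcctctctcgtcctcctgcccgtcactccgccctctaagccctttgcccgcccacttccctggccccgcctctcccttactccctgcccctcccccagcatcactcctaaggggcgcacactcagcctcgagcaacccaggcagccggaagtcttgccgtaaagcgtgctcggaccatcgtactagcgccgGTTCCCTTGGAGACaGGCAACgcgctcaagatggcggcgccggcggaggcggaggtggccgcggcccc
Both motifs occurred in the windows of genes that went either way. Of the members with a window, 30 were lower and 5 higher at an adjusted p under 0.05 for the mean of both sexes. A half-site or an X-box was held by 13 of the 30, 2 of the 5 and 18 of the 28 others. Of the called genes, Hydin and Cfap74 held a half-site, and neither motif was found in the windows of Drc3, Dnah12, Dnah5, Cfap57 and Cfap52. No window was matched for the called genes Cfap157 and Rsph4a, nor for Foxj1, which was not called.

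In hyperoxia 7 axoneme genes fell by 30.0% to 39.0% for the mean of both sexes, while 65 of the 74 members were called in neither sex nor for their mean. In females 7 members fell and 0 rose, which is 9.46% lower, against 2.93% of all clusters called lower and 3.59% called higher. In males 6 fell (8.11%) and 1 rose (1.35%), against 3.39% lower and 3.94% higher among all clusters. For the mean of both sexes 7 fell (9.46%) and 0 rose, against 3.26% lower and 3.86% higher of the clusters, and 3.86% lower and 5.16% higher of the 19938 genes. With no fold required, 35 of 74 members (47.3%) were lower and 6 (8.1%) higher for the mean of both sexes, against 17.6% of genes lower and 17.6% higher. Array weights, whose fit stopped before converging, left 3 calls in each comparison: Cfap157 and Drc3 fell in all of them, joined by Cfap57 in females and by Cfap52, which rose, in males and for the mean of both. Hydin, Dnah12 and Dnah5 were not called in any comparison under these weights, nor were Cfap74 in females, Rsph4a in males and for the mean, and Cfap57 for the mean, because each came under the fold while its adjusted p was at most 0.0135. The median log2 fold change of the members was -0.17 in females and -0.13 in males, against -0.02 and 0.01 over all genes. In whole lung RNA, fewer ciliated cells and less RNA per ciliated cell cannot be told apart.

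The mean of all 74 members lay at 8.71, 8.79 and 8.79 in female room air and at 8.53, 8.54 and 8.62 in female hyperoxia. In males the room air pools lay at 8.70, 8.66 and 8.81 and the hyperoxia pools at 8.63, 8.58 and 8.55. All hyperoxia pools were below all room air pools of their sex, although the gap in males, from 8.63 to 8.66, was narrower than the range within either male group.

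Cfap157 (chr2:32777413-32784405 in GRCm38.p6), which encodes a basal body and flagellar protein needed for sperm tails, had the largest decrease of the members for the mean of both sexes. It measured 8.90, 9.12 and 8.97 in female room air, 8.19, 8.30 and 8.29 in female hyperoxia, 8.89, 8.91 and 9.05 in male room air, and 8.39, 8.30 and 8.10 in male hyperoxia. The groups did not overlap in either sex, and every hyperoxia pool was below every room air pool of its sex. Its log2 fold change was -0.74 ± 0.09 (SE) in females (limma, adjusted p = 0.000228) and -0.69 ± 0.09 in males (adjusted p = 0.00032) and for the mean of both sexes it fell by 39.0%. Drc3 (chr11:60352881-60394342), a subunit of the nexin-dynein regulatory complex, fell in both sexes. It measured 9.84, 9.75 and 9.94 in female room air, 9.12, 9.10 and 9.19 in female hyperoxia, 9.79, 9.77 and 9.89 in male room air, and 9.15, 9.17 and 9.07 in male hyperoxia. The hyperoxia pools of both sexes sat together, well under every room air pool. Its log2 fold change was -0.70 ± 0.06 in females (adjusted p = 4.61e-05) and -0.69 ± 0.06 in males (adjusted p = 4.43e-05), and for the mean of both sexes it fell by 38.2%.

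The motor proteins that fell were 1 outer and 1 inner heavy chain. Dnah5 (chr15:28154854-28472045), the outer arm heavy chain most often affected in primary ciliary dyskinesia, measured 9.92, 10.00 and 10.04 in female room air, 9.52, 9.27 and 9.52 in female hyperoxia, 9.92, 9.75 and 10.11 in male room air, and 9.38, 9.52 and 9.33 in male hyperoxia. The groups were apart in each sex, most narrowly between male room air replicate 2 and male hyperoxia replicate 2. Its log2 fold change was -0.55 ± 0.10 in females (adjusted p = 0.00353) and -0.52 ± 0.10 in males (adjusted p = 0.00464). Dnah12 (chr14:26691554-26892719), an inner arm heavy chain, measured 10.58, 10.56 and 10.64 in female room air, 10.11, 9.86 and 10.16 in female hyperoxia, 10.47, 10.34 and 10.78 in male room air, and 9.92, 10.09 and 9.88 in male hyperoxia. Male room air replicate 3 stood above the other male pools. The log2 fold change of Dnah12 was -0.55 ± 0.12 in females (adjusted p = 0.00806) and -0.57 ± 0.12 in males (adjusted p = 0.00596), and its other cluster, which was dimmer, was lower by 0.63 for the mean of both sexes.

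The structures that steer the motors were represented by Hydin, Rsph4a and Cfap74. Hydin (chr8:110266968-110610253), a large protein of a central pair projection, measured 10.12, 10.21 and 10.26 in female room air, 9.67, 9.53 and 9.77 in female hyperoxia, 10.06, 10.02 and 10.23 in male room air, and 9.59, 9.64 and 9.55 in male hyperoxia. Its groups did not overlap, and its log2 fold change was -0.54 ± 0.08 in females (adjusted p = 0.000916) and -0.51 ± 0.08 in males (adjusted p = 0.00118). Rsph4a (chr10:33905111-33916021), a protein of the radial spoke head, measured 10.09, 10.05 and 10.19 in female room air, 9.66, 9.53 and 9.82 in female hyperoxia, 9.85, 10.17 and 10.25 in male room air, and 9.50, 9.54 and 9.45 in male hyperoxia. It fell in males (log2 fold change -0.60 ± 0.11, adjusted p = 0.00262) and for the mean of both sexes (-0.52 ± 0.08, adjusted p = 0.000404), and in females its value of -0.44 ± 0.11 (adjusted p = 0.0158) was under the fold required. Cfap74 (chr4:155392099-155466823), of another central pair projection, measured 8.94, 9.10 and 8.97 in female room air, 8.42, 8.53 and 8.60 in female hyperoxia, 8.86, 8.87 and 9.09 in male room air, and 8.56, 8.46 and 8.46 in male hyperoxia. By the cluster used, Cfap74 was called in females alone (log2 fold change -0.49 ± 0.08, adjusted p = 0.00173), at the edge of the threshold. In males it was at -0.44 ± 0.08 (adjusted p = 0.00274). The other cluster of Cfap74, which was dimmer, was at -0.52 in females, -0.51 in males and -0.51 for their mean, past the fold in each. Cfap57 (chr4:118554550-118620819), needed for the assembly of some inner dynein arms, measured 8.95, 8.94 and 8.94 in female room air, 8.43, 8.29 and 8.45 in female hyperoxia, 8.93, 8.71 and 9.0 in male room air, and 8.50, 8.34 and 8.36 in male hyperoxia. The female room air pools of Cfap57 were almost identical. It fell in females (-0.55 ± 0.08, adjusted p = 0.00093) and for the mean of both sexes (-0.51 ± 0.06, adjusted p = 6.62e-05), with -0.48 ± 0.08 (adjusted p = 0.00195) in males, just short of the fold required. The other cluster of Cfap57, which was dimmer, changed less, by -0.35 in females, -0.19 in males and -0.27 for their mean. It was under the fold in each, so the call of Cfap57 depends on the cluster used.

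A single member rose. Cfap52 (chr11:67924806-67965669), a protein that lines the inside of the doublet microtubules, measured 9.07, 9.04 and 9.11 in the room air pools of males and 9.72, 9.72 and 9.57 in their hyperoxia pools, and 9.22, 9.26 and 9.43 in female room air against 9.51, 9.61 and 9.68 in female hyperoxia. Every hyperoxia pool was above every room air pool of its sex, and the male room air pools were the lowest of all 12. It rose in males (log2 fold change 0.60 ± 0.07, adjusted p = 0.000278, 51.2% higher), and in females its value was 0.29 ± 0.07 (adjusted p = 0.0192), under the fold required. The other 5 members with a positive mean change at an adjusted p under 0.05 were all under the fold. Dnaaf5, a factor for dynein arm assembly, measured 9.81, 9.87 and 9.82 in female room air, 10.16, 10.18 and 10.20 in female hyperoxia, 9.74, 9.84 and 9.99 in male room air, and 10.22, 10.27 and 10.24 in male hyperoxia. The hyperoxia pools of Dnaaf5 were tightly grouped above all room air pools, with a mean log2 fold change of 0.37 ± 0.05 (adjusted p = 0.000124). Cfap45 and Cfap53, which like Cfap52 sit inside the doublets, had mean changes of 0.31 ± 0.07 (adjusted p = 0.0052) and 0.28 ± 0.06 (adjusted p = 0.00657). Cfap298 had 0.26 ± 0.06 (adjusted p = 0.00606), and Drc7, of the same regulatory complex as Drc3, had 0.18 ± 0.06 (adjusted p = 0.0391). Cfap45, Cfap53, Cfap298 and Drc7, and Dnah1, Dnah11, Tekt2 and Cfap20 further on, were chosen for mention after their values were seen.

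**Figure D1:**
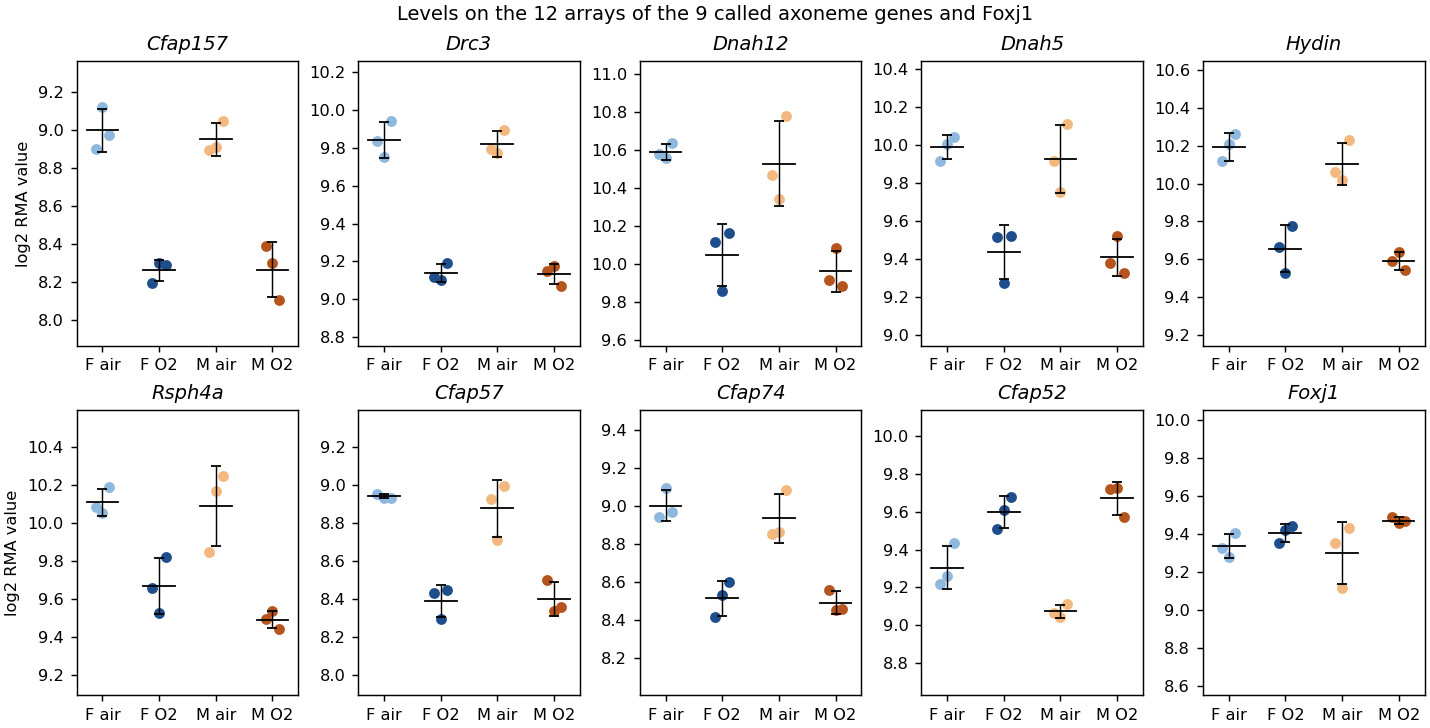
Each point is 1 array (a pool of 4 mice) and its log2 RMA value, for the 9 genes called in females, in males or for their mean, and for Foxj1; bars are the group mean and SD of 3 arrays, F and M are female and male, air and O2 room air and hyperoxia, and each axis spans 1.5 log2 units. The hyperoxia pools lie below the room air pools for 8 genes, above them for Cfap52, and the female groups overlap for Foxj1.

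Of the 4 regulators among the members 0 were called by limma for the mean of both sexes. At an adjusted p under 0.05 alone 2 (Rfx3 and Rfx2) were lower and 0 higher, against 17.6% of all genes each way. The same 2 had an unadjusted p under 0.05. Foxj1 (chr11:116330704-116335499) measured 9.33, 9.28 and 9.41 in female room air, 9.36, 9.43 and 9.44 in female hyperoxia, 9.35, 9.12 and 9.43 in male room air, and 9.49, 9.46 and 9.47 in male hyperoxia. The female groups overlapped, and the male hyperoxia pools were just above the highest male room air pool. Its mean log2 fold change was 0.12 ± 0.06 (adjusted p = 0.153), with 0.07 in females and 0.17 in males, so it was not called. Rfx3 measured 9.35, 9.43 and 9.42 in female room air, 8.92, 8.85 and 9.03 in female hyperoxia, 9.28, 9.40 and 9.41 in male room air, and 8.95, 9.02 and 8.76 in male hyperoxia. Its groups did not overlap, and its mean log2 fold change of -0.46 ± 0.05 (adjusted p = 9.91e-05) was just under the fold required. Rfx2 was at -0.17 ± 0.05 (adjusted p = 0.0174). Mcidas, the coactivator that starts centriole amplification, ranged from 8.18 to 8.74 over all pools, with a mean change of 0.01 ± 0.12 (adjusted p = 0.967), and its groups overlapped in both sexes.

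By structure, the dynein arms leaned lower. Among all 19938 genes, 10401 were below 0 for the mean of both sexes, and 17.6% were lower and 17.6% higher at an adjusted p under 0.05. All 7 outer arm genes were below 0 for the mean of both sexes, with a median log2 fold change of -0.27, and 5 had an adjusted p under 0.05, of which Dnah5 also passed the fold. Among them Dnaic1, an outer arm intermediate chain, was at -0.42 ± 0.06 (adjusted p = 0.000557) and Dnah11 at -0.39 ± 0.06 (adjusted p = 0.000352). Dnaic2, the partner intermediate chain, was at -0.13 ± 0.06 (adjusted p = 0.128), and Dnah17, a chain known from sperm, at -0.03 ± 0.11 (adjusted p = 0.934). All 10 inner arm genes were below 0, with a median of -0.24, and 6 had an adjusted p under 0.05, led by Dnah12 and then Dnah1 at -0.39 ± 0.06 (adjusted p = 0.000374). Dnah3 was at -0.32 ± 0.08 (adjusted p = 0.0125), and all 33 clusters that the array holds for it were below 0, with a median of -0.23. Of the 33, 14 had an adjusted p under 0.05. These clusters read 1 gene on the same arrays, so their shared sign is not repeated evidence. Dnah7a, Dnah7b and Dnah7c are near-identical copies whose probes can share signal, so their values, between -0.02 and -0.01, are uncertain. Dnah14, at -0.07 (limma, adjusted p = 0.724), had a low mean level of 4.84. Centring the arrays on their medians moved the median of all clusters up by 0.04, more than the size of the Dnah17 and Dnah7 values. That Dnah17 and the Dnah7 copies were below 0 therefore depends on the normalization.

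The radial spokes (7 genes, median -0.21) and the central pair (8 genes, median -0.23) each had 4 members lower at an adjusted p under 0.05 and none higher. Rsph6a, a spoke gene of the testis, was at -0.01 ± 0.14, and Spag6l, a central pair protein, at -0.06 ± 0.05 (adjusted p = 0.486). Cfap69, also of the central pair, had a mean change of 0.05 ± 0.12 with pools from 9.07 to 9.73, and its groups overlapped in both sexes. The nexin-dynein regulatory complex held opposite signs, with Drc3 called lower, Drc1 at -0.02 ± 0.10 (adjusted p = 0.939) and Drc7 above 0. The microtubule inner proteins and tektins (12 genes, median -0.14) were split, with 4 lower and 3 higher at an adjusted p under 0.05. The lower ones were led by Tekt2, a tektin of the doublet wall, at -0.43 ± 0.06 (adjusted p = 0.000208), and Cfap20, an inner junction protein, at -0.37 ± 0.04 (adjusted p = 9.41e-05), while the 3 higher ones were Cfap45, Cfap52 and Cfap53. Tekt3 was at -0.06 ± 0.09 (adjusted p = 0.768). Of the 9 assembly factors 2 were lower and 2 higher at an adjusted p under 0.05, with a median of -0.07, and Dnaaf1 was at -0.23 ± 0.09 (adjusted p = 0.0803). Among all genes 17.6% were lower and 17.6% higher by that threshold. With so few genes, the counts of the assembly factors and the 3 higher inner proteins are not set apart from these shares. The remaining 14 members had a median of -0.12 and 7 lower, among them Cfap65, a protein of ciliary and sperm axonemes, at -0.40 ± 0.05 (adjusted p = 0.000152). Whether the structures differ from each other in their change was not tested.

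**Figure D2:**
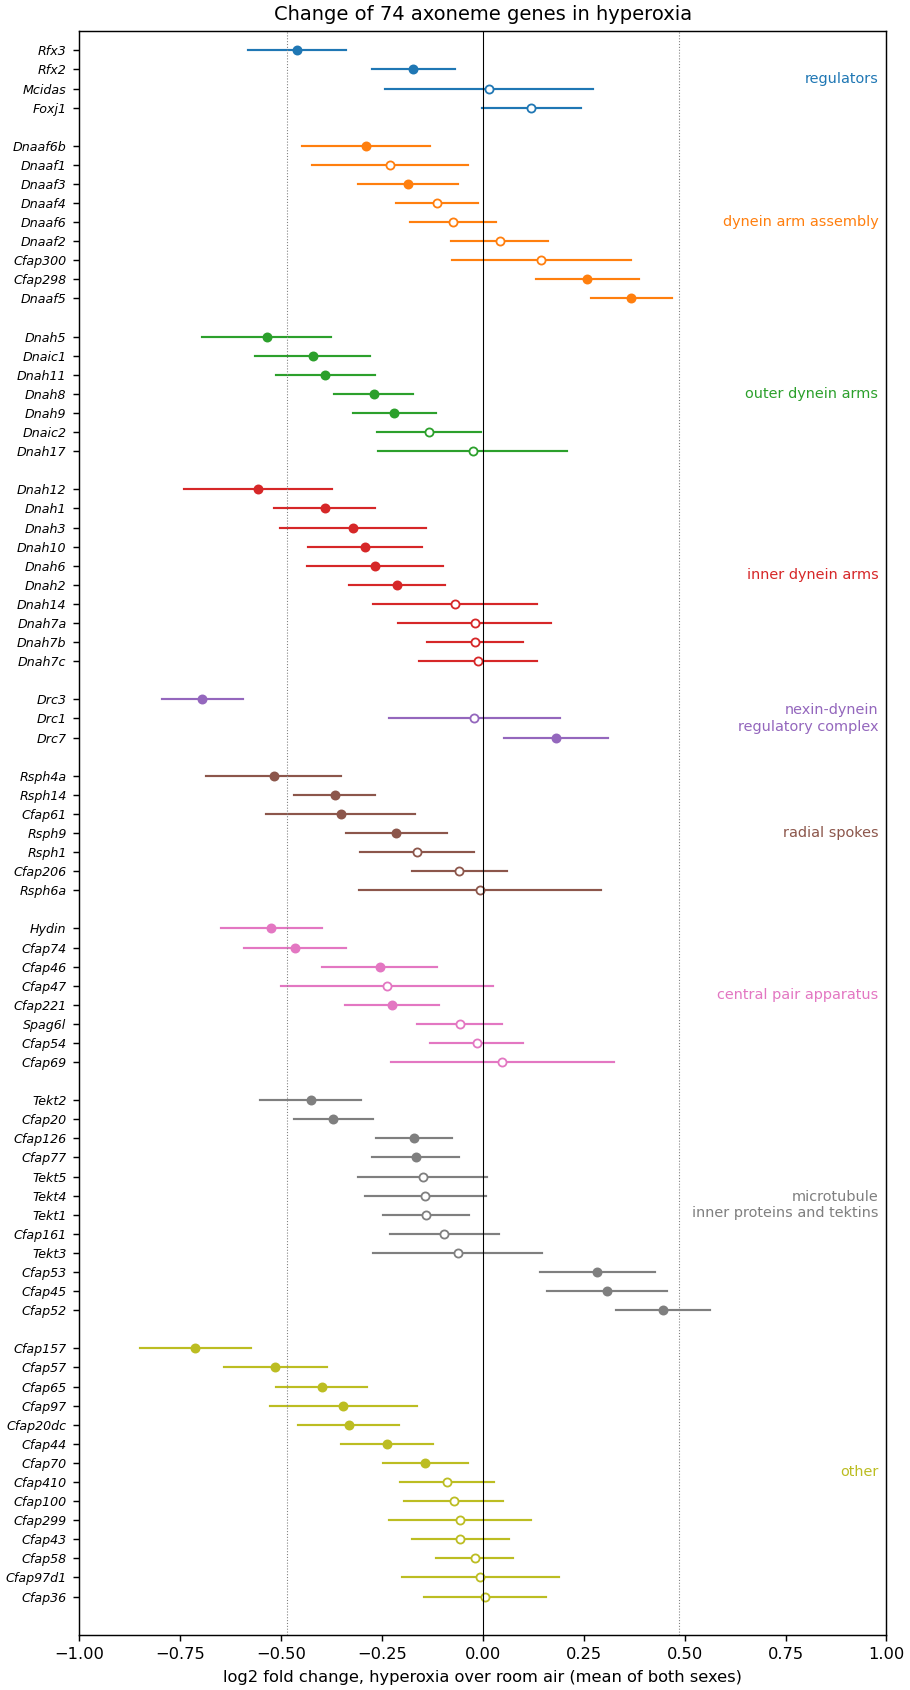
Change in hyperoxia on the log2 scale (mean of both sexes) for the 74 members, grouped and coloured by the part of the axoneme; bars are 95% confidence intervals from limma, filled points have an adjusted p under 0.05 and dotted lines mark the 1.4-fold threshold. All points of both dynein arm groups lie below 0, though Dnah17, Dnah7a, Dnah7b and Dnah7c only just. The microtubule inner proteins fall on both sides.

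The changes in females and in males lay close to each other for most of these genes, with a median size of the difference of 0.06. Of the 74 members 49 were below 0 in both sexes, 9 above 0 in both and 16 of opposite sign, and across the members, which are not independent, the female and male log2 fold changes had a Pearson r of 0.923. The 5 genes that fell in each sex were Cfap157, Drc3, Dnah12, Dnah5 and Hydin. The test of the difference itself, the change in males minus that in females, called 0 members and 0% of all clusters with limma, and 3 members had an unadjusted p under 0.05. The male change was the higher of the pair for 61 of 74 members and the lower for 13, while over all 19938 genes it was the lower for 8409. The median difference was 0.06 for the members, against 0.02 over all genes. A typical 95% interval of the difference reached 0.25 to either side, so differences of that size could be missed. Cfap52 had the smallest p, with a difference of 0.30 (adjusted p = 1). Tekt5, a tektin known from sperm, measured 9.07, 9.27 and 9.15 in female room air, 8.59, 8.91 and 8.94 in female hyperoxia, 9.21, 9.31 and 9.26 in male room air, and 9.24, 9.24 and 9.45 in male hyperoxia. Its female groups were apart and its male groups overlapped, with a difference of 0.40 (adjusted p = 1). Dnah8, an outer arm heavy chain best known from sperm, changed by -0.16 in the female and by -0.38 in the male pools, a difference of -0.21 (adjusted p = 1). Between the sexes 0 members were called in room air, against 0.0141% of clusters, and 0 in hyperoxia, against 0.0169%, with 2 and 3 members at an unadjusted p under 0.05.

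**Figure D3:**
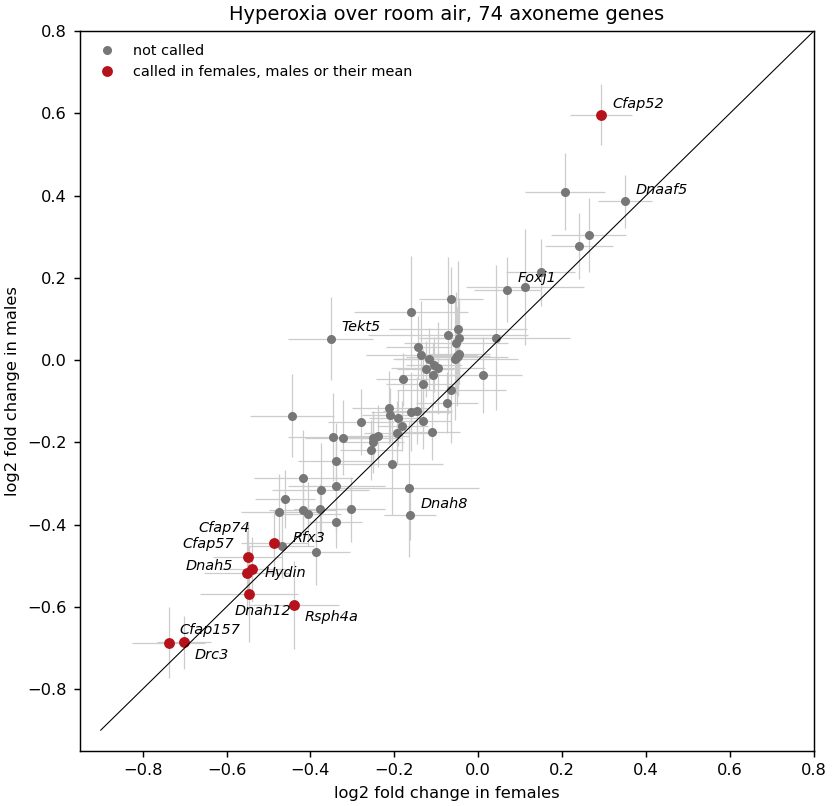
Each point is 1 of the 74 members, with its log2 fold change in hyperoxia for females (x axis) and males (y axis); grey bars are standard errors, red points were called in females, males or their mean, and the line marks equal change. Points lie along the line, with 61 of 74 above it.

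The pools of a group differed little for these genes, and part of what they differed in was shared. The residual SD of a member between pools of the same group had a median of 0.10 on the log2 scale, from 0.06 to 0.26, against 0.11 for all genes, and 25 of 74 members were above that median of all genes. After each group's mean was taken away, the correlation of a member with the mean of the other 73 over the 12 arrays had a median of 0.62, and 45 members were above 0.5 and 4 below 0. These correlations share arrays and normalization and have 8 residual degrees of freedom, so they are given as a description. Male room air replicate 3 had 65 of 74 members above its group mean and female hyperoxia replicate 3 had 61, while female room air replicate 1 had 8 and male hyperoxia replicate 3 had 13. The deviation of a whole pool from its group mean was at most 0.09, in male room air replicate 3. Hydin followed this pattern, as its values per pool show. The 10 members with a correlation under 0.2 had a median level of 7.66, against 8.75 for the other 64, and a median residual SD of 0.17, against 0.09. Among these 10 were Rsph6a, Drc1, Dnah17, Tekt5, Dnah8 and Cfap69. By level, the 27 members at 9 or over had a median mean log2 fold change of -0.24 with 17 lower and 3 higher at an adjusted p under 0.05, the 39 from 7.5 to 9 had -0.14 with 15 and 3, and the 8 under 7.5 had -0.07 with 3 and 0. All genes were not counted by level, so whether this pattern is particular to the members was not tested.

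**Figure D4:**
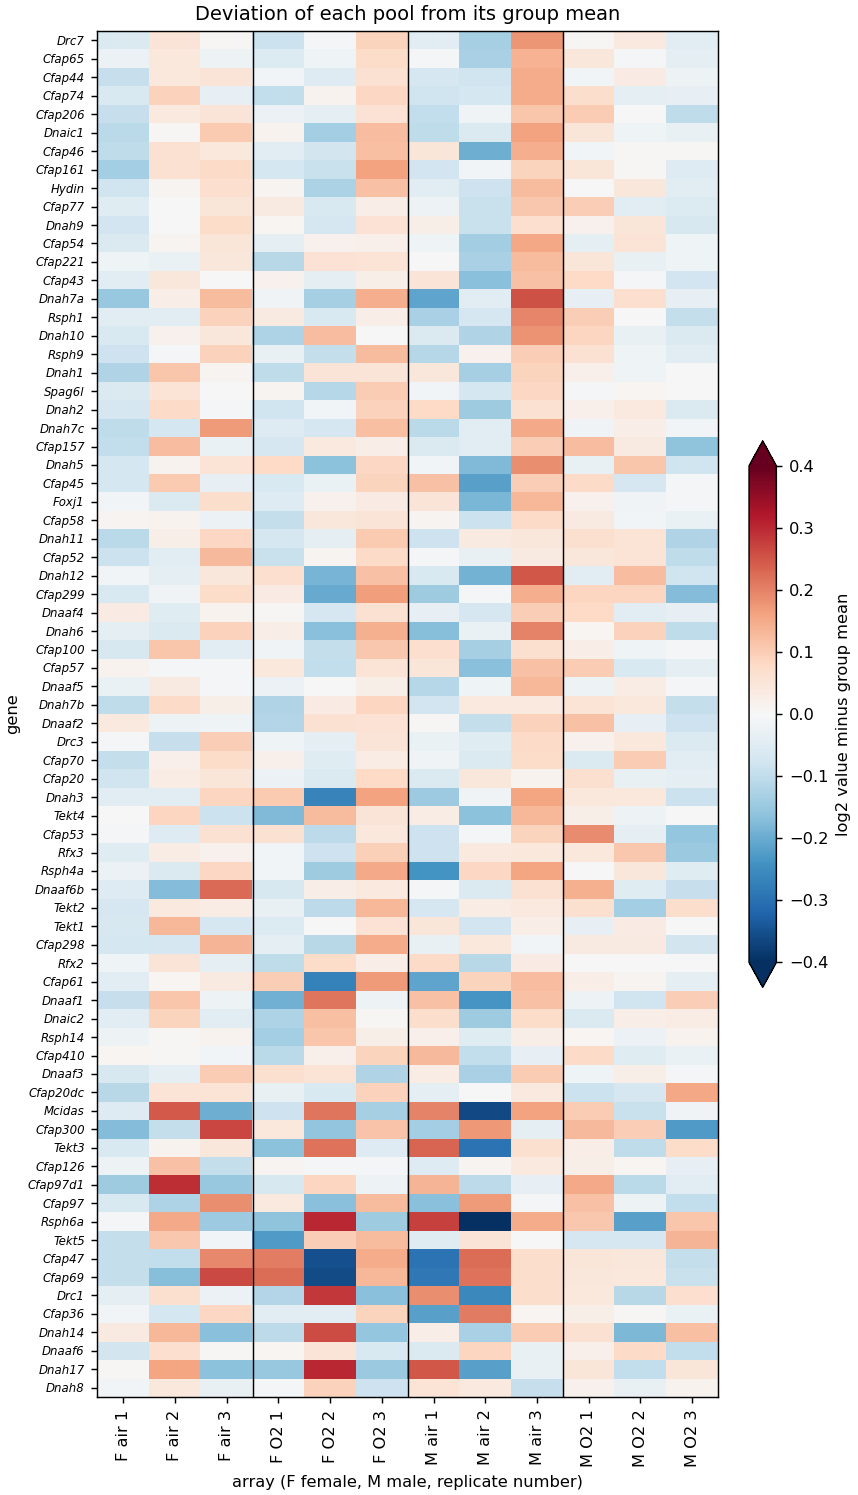
Each cell is the log2 value of a member (rows, ordered by their correlation with the other members) on 1 array (columns) minus the mean of its group of 3 arrays, in log2 units; F and M are female and male, air and O2 room air and hyperoxia. Most rows are red in male room air replicate 3 and blue in female room air replicate 1, and the lowest rows do not share that pattern.

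The genes whose deviations were most like the mean of the members, among all genes and over the 12 arrays, were Spata18 (r = 0.91), Ulk4 (r = 0.91), Syt5 (r = 0.91), Efcab12 (r = 0.91) and Gabarap (r = 0.90), a ranking added after the data were seen. Of these, Ulk4 was on the list of ciliogenesis regulators. Among genes with a residual SD of at least 0.2, which leaves out most cilia genes, Cyp4a10 (r = 0.85) and Fam107a (r = 0.68) were the most alike. The length of a member's gene had a Pearson r of -0.19 with its mean log2 fold change, against -0.04 over 19856 genes.

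On a list of 78 other axoneme and motile cilia genes 64 were below 0 for the mean of both sexes, against 10401 of all 19938 genes. Of the 78, 6 fell and 0 rose, against 3.86% of all genes lower and 5.16% higher, 34 were lower and 0 higher at an adjusted p under 0.05 alone, against 17.6% each way, and the median was -0.14. The 6 were Tppp3, a tubulin binding protein abundant in ciliated cells, at -0.78 ± 0.05, Lrrc23, of the radial spoke head, at -0.72 ± 0.04, Dnali1, an inner arm light intermediate chain, at -0.66 ± 0.06, Dynlrb2, a dynein light chain, at -0.63 ± 0.07, Ttc25, of the outer arm docking complex, at -0.58 ± 0.05, and Ak8, an adenylate kinase, at -0.53 ± 0.06. Of 15 ciliogenesis regulators other than the members, Gmnc alone was called, with log2 fold changes of -1.41 (females) and -1.45 (males), larger in size than that of any member. At an adjusted p under 0.05 alone 4 of the 15 were lower, namely Gmnc, Myb (-0.41 ± 0.05), Ulk4 (-0.31 ± 0.05) and Trp73 (-0.23 ± 0.04), and 3 were higher, namely E2f4, E2f5 and Jazf1.

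Lists of ciliary transport, the ciliary base, centriole assembly and tubulins are given beside the same shares of all genes, 3.86% called lower and 5.16% higher, and 17.6% each way at an adjusted p under 0.05 alone. Of 32 intraflagellar transport genes Wdr19 fell (-0.52 ± 0.07), 11 were lower and 0 higher at an adjusted p under 0.05, and 19 were below 0. Of 28 BBSome and transition zone genes Cc2d2a (-0.58 ± 0.05) and Bbs2 (-0.50 ± 0.06) fell and Ahi1 rose (0.62 ± 0.05), 8 were lower and 2 higher at an adjusted p under 0.05, and 18 were below 0. Of 24 deuterosome and centriole genes Cenpj fell (-0.52 ± 0.09), 9 were lower and 1 higher at an adjusted p under 0.05, and 17 were below 0. Of 27 tubulins and tubulin modifiers Tubb6 (1.69 ± 0.05), Tubb2b (0.65 ± 0.06) and Ttll7 (0.60 ± 0.07) rose, and Atat1, the enzyme that acetylates alpha-tubulin of stable microtubules, fell (-0.64 ± 0.05). At an adjusted p under 0.05 alone 7 of the 27 were lower and 4 higher, and 13 were below 0. These tubulin genes are used by many cells other than ciliated ones.

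Markers of ciliated cells were present in every pool, and their mean was lower in each hyperoxia pool than in any room air pool. The mean of 18 ciliated cell markers, of which 4 are members, was 9.75 ± 0.04 (SD, n = 3) in female room air, 9.46 ± 0.09 in female hyperoxia, 9.66 ± 0.08 for male room air and 9.43 ± 0.07 for male hyperoxia. Most of the non-member markers are also on the list of other axoneme genes above, so they largely repeat genes already counted. Of the 18, 4 fell and 0 rose for the mean of both sexes, namely Dynlrb2, Hydin, Sec14l3 and Tppp3, against 3.86% of all genes called lower and 5.16% higher. Markers of other epithelial cells moved as well. Of 11 club cell markers, 2 fell and 0 rose (Gabrp and Scgb3a2), and their mean was 12.41 ± 0.13 in female room air, 12.06 ± 0.29 in female hyperoxia, 12.26 ± 0.25 for male room air and 12.08 ± 0.16 for male hyperoxia. The club cell means of the pools overlapped in both sexes. Female hyperoxia replicate 1 (12.34) lay above female room air replicate 2 (12.27), and male hyperoxia replicate 2 (12.25) above male room air replicate 2 (11.97). Of 8 mucous cell markers 3 fell and 0 rose, of 9 alveolar type 2 markers 4 fell and 0 rose, and of 8 alveolar type 1 markers 1 fell and 1 rose. Of 15 cartilage markers Chad fell, and in limma 0 of the 20 squamous epithelium, 6 basal cell, 12 skeletal muscle, 4 thyroid and 6 thymus markers were called, with 1 thymus marker and 0 of the others at an unadjusted p under 0.05. The part of these shifts in the values of the axoneme genes was not tested.

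The counts moved in both sexes when arrays were left out. Without female hyperoxia replicate 2 the female count was 4, without female hyperoxia replicate 3 it was 12, and without male room air replicate 3 the male count was 4. Leaving out the 3 pools with the most squamous epithelium signal kept a single room air array of females, assumed to vary like the other groups, and 2 members were called in females (Cfap157 and Drc3), 7 in males and 9 for the mean of both sexes. The smaller number of female arrays and the squamous signal cannot be told apart in that female count, and the log2 fold changes of Hydin, Cfap57, Cfap74, Dnah12 and Dnah5 in females still lay between -0.61 and -0.53.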

How the data were processed

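Lung RNA of 12 pools, 3 per group of sex and exposure, was hybridised to Affymetrix Mouse Gene 1.0 ST arrays. The authors deposited log2 values made by RMA (background correction, quantile normalization and probe summary; version not given in the sources used here), and these were used as deposited, for 35556 clusters. The number of arrays limits the precision. Clusters were named from the platform annotation, where 21789 had 1 symbol, 1621 several and 12146 were not listed; 7 clusters that hold a member among several symbols were left out. A linear model of the 4 group means was fitted with lmFit and eBayes of limma 3.58.1 (R 4.3.3). Hyperoxia was compared with room air within females, within males and for the mean of both; further contrasts were the difference of that change between the sexes, and males minus females within each exposure. A call needed a Benjamini-Hochberg adjusted p under 0.05 over all clusters and a fold change of at least 1.4. The fit was tested on simulated data. The members, the 17 gene and marker lists and the tests were chosen with earlier results of these data known, and lists are described by counts beside all genes. Members named in the text are the 6 single genes of the rule, every called member and the leading members of each family and contrast, with exceptions given in the text. The titles give each group replicates 1 to 3. Over all 35556 clusters, the deviations of same-numbered arrays from their group means correlated at 0.28, 0.70 and 0.46 in the female comparison. In the male comparison they correlated at -0.17, 0.33 and 0.23. By the rule that every pair exceed 0.1, the numbers paired the female arrays and not the male ones. No label states such a pairing. Female room air replicate 3 also correlated more, at 0.58, with a female hyperoxia array of another number, so the hint from the data is weak. As alternatives the replicate number was used as a block, and other settings were centred arrays, quantile normalization again, a minimum mean log2 of 5, eBayes with trend and robust, array weights, each sex alone, each array left out, no fold threshold, the squamous epithelium mean as a covariate, leaving out the 3 arrays richest in it, the mean of all clusters of a gene, and current symbols. No scan date was at hand, so batches of arrays could not be examined.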

Additional observations from a re-analysis of the deposited data

How the results depend on the processing

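In hyperoxia, 7 members were called in females, 7 in males and 7 for the mean of both sexes. With the replicate number as a block these counts were 7, 7 and 7, over all arrays and within each sex alike, and the block changed no count for the sex comparisons. Array weights, whose fit stopped before converging, gave 3, 3 and 3, and no fold threshold gave 29, 23 and 41. Centring the arrays on their medians, which moved the median of all clusters by 0.04, gave 6, 5 and 5. Without the 3 arrays richest in squamous epithelium genes the female count was 2, and with their mean as a covariate the counts were 7, 7 and 7. Leaving out 1 array at a time gave 4 to 12 in females, 4 to 9 in males and 5 to 8 for the mean. The counts for the interaction and for the sexes were 0 under every alternative run. Members near 0 that were not called changed sign in the mean of both sexes. Mcidas, at 0.0146, had -0.0226 under array weights, -0.0878 without the 3 arrays richest in squamous epithelium genes and -0.0756 to 0.0760 with 1 array left out. Spag6l, at -0.0577, had 0.0171 under array weights. Dnah17, at -0.0254, had 0.0159 with centred arrays, 0.00702 with quantile normalization again, 0.0551 for the mean of its clusters and -0.100 to 0.0366 with 1 array left out. Drc1, at -0.0212, had 0.0201, 0.0130 and -0.0919 to 0.0254 under centring, quantile normalization and 1 array left out, and Rsph6a, at -0.00610, had 0.0352, 0.0189 and -0.112 to 0.0625 under the same. Cfap69, at 0.0488, had -0.0229 to 0.138 with 1 array left out. The causes of these changes were not tested. The number of pools, 3 per group, limits what could be called.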
